A study of Arabidopsis thaliana with 5 samples.

Results

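The genes described here are 10 components of the Arabidopsis circadian system: LUX, BOA, RVE4, RVE8, LNK1, LNK2, GRP7, GRP8, CDF1 and FKF1. They were chosen by name and found through the locus to which each array probe's transcript accession belongs. All 10 were on the array, with 19 of its 43603 gene probes, among 25433 genes that could be named. All 10 were also among the 18122 genes bright enough to be tested. The tissue was cotyledon, the seed leaf, from 7-day-old Arabidopsis thaliana seedlings grown under long days of 16 h light and 8 h dark. The tested line is titled ckg (one label field writes cgr mutant) and gave 3 arrays, against 2 arrays of the wild type Col-0. From outside knowledge ckg was taken to be a mutant of the basic helix-loop-helix factor gene AT5G50915. The labels give neither the kind of allele, nor how many seedlings were pooled, nor the hour of harvest, and all these genes follow the time of day.

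The plant clock is a set of transcription factors that switch one another on and off in turn through the day. CCA1 and LHY are made around dawn and repress evening genes, PRR proteins follow during the day, and at night the evening complex, in which LUX or its close relative BOA binds DNA together with ELF3 and ELF4, represses its own targets. RVE4 and RVE8, Myb-like relatives of CCA1, act the other way: they activate evening genes, and they do so with the coactivators LNK1 and LNK2, which do not bind DNA themselves. GRP7 and GRP8 are RNA-binding proteins that carry the rhythm to other transcripts and act on the splicing of their own and each other's messages. CDF1 represses the flowering gene CO, and FKF1, a blue-light-sensing F-box protein, removes CDF1 and its relatives in the long-day afternoon.

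Each RNA was hybridised to its own array in the dye Cy3, and values are log2 spot signal minus the array's 75th percentile, so 0 is the level that 75% of an array's spots do not exceed. On 1 array, ckg replicate 3, only 52.4% of spots were well above background, against 66.7% to 70.0% on the others. Pearson correlations between arrays, taken across genes and so without independent points, were 0.979 to 0.989 within ckg, 0.992 within Col-0 and 0.977 to 0.986 between genotypes. The ckg arrays shared slide 2 and a scan date, and the Col-0 arrays shared slide 1 and another scan date. The effects of slide, scan and genotype therefore cannot be told apart. Of 6 green-tissue markers, 5 (RBCS1A, RBCS3B, RCA, LHCB1.1 and LHCA1) were bright. They lay between 6.52 and 7.30 on the ckg arrays and between 6.39 and 7.27 on the Col-0 arrays. The other, LHCB2.1, was below 0 on every array, between -1.26 and -0.68 in ckg and at -0.66 and -0.15 in Col-0. Its difference was -0.57 ± 0.24 (SE), with groups that did not overlap. All 4 shoot apex markers (STM, WUS, CLV3 and KNAT1), 3 of 6 root markers (IRT1, RHD6 and EXPA7), 1 of 2 trichome markers (GL1) and 2 of 3 seed storage markers (CRA1 and SESA4) were not well above background on any array, and TRY was the only marker of these tissues above it on every array. The root markers COBL9 and AT5G47450 were above it on 2 of 3 ckg arrays and on both Col-0 arrays. CASP1 (root) and CRU3 (seed storage) were above it on 1 Col-0 array each. The gene taken as mutated gave 6.46, 16.5 and 51.3 units of processed signal in ckg, against 1070 and 962 in Col-0. It was at least 29.6-fold lower in ckg, since no ckg array measured it above background.

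Of the 10 clock genes, 7 had a higher mean in ckg and 3 a lower one, with a median log2 difference of 0.24, against a median of -0.01 over all 18122 genes tested. RVE4, RVE8, GRP8 and CDF1 were higher in ckg by 0.38 to 0.68 (log2), on every ckg array against both Col-0 arrays, at a limma unadjusted p under 0.05. These 4 of 10, all higher, stand beside 18.1% of all tested genes at that p (8.3% higher, 9.81% lower). Groups that do not overlap were common, however: they occurred for 42.1% of genes tested (19.5% higher, 22.6% lower), so 4 of 10 was close to the share among all genes. None of the 10 passed limma's adjusted p of 0.05, and neither did any of the 18122 genes (0%); 3283 genes were at an unadjusted p under 0.05. An exact permutation over 5 arrays has 10 splits and cannot give a p below 0.1. In bulk tissue, fewer cells of a type and less RNA per cell cannot be told apart.

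**Figure D1:**
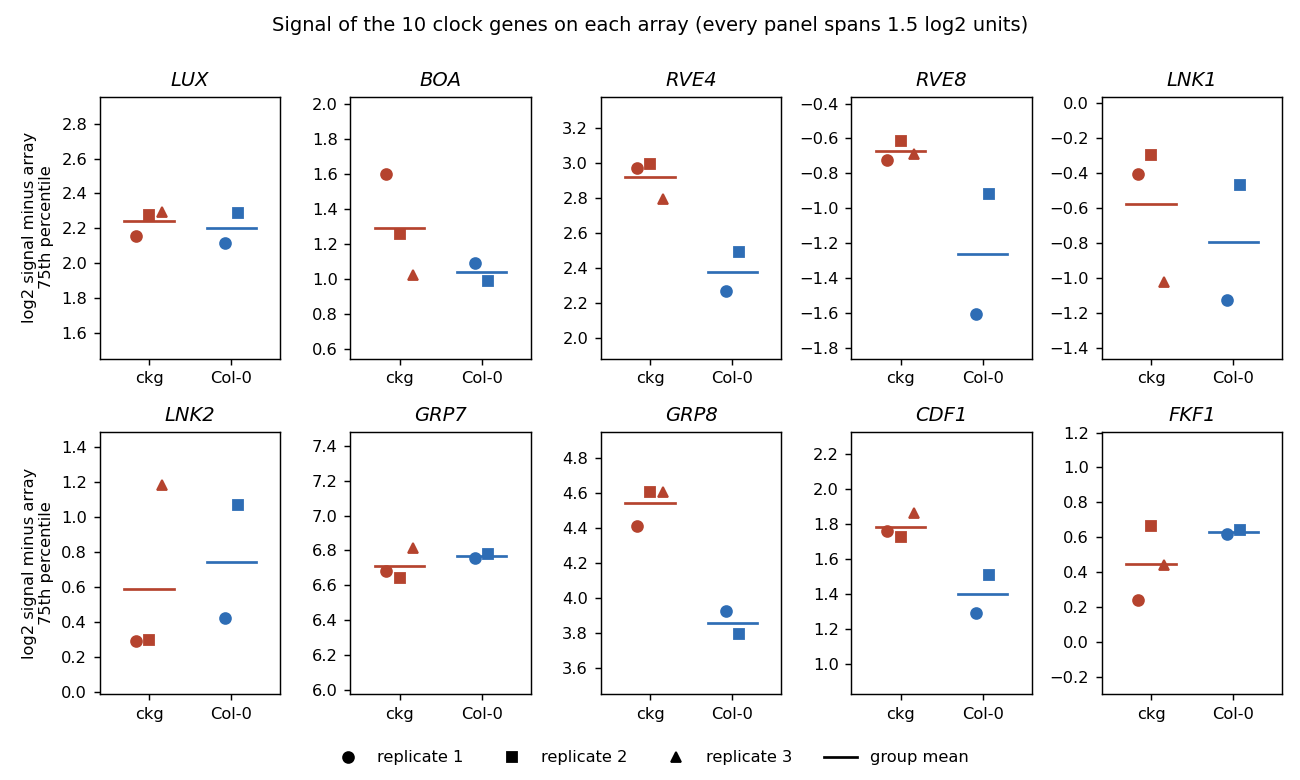
Log2 signal minus the array's 75th percentile for each clock gene, with the 3 ckg arrays left of the 2 Col-0 arrays. Symbols give the replicate, lines the group mean, and every panel spans 1.5 log2 units. Every ckg symbol lies above every Col-0 symbol for RVE4, RVE8, GRP8 and CDF1, while LNK1 and LNK2 scatter within both groups.

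For LUX and BOA, the DNA-binding members of the evening complex, the ckg and Col-0 arrays overlapped. LUX (AT3G46640) was at 2.15, 2.28 and 2.30 on the ckg arrays, against 2.11 and 2.29 on the Col-0 arrays. The groups overlapped, and the difference was 0.04 ± 0.11 (SE), with a 95% interval of -0.25 to 0.33 (limma adjusted p = 0.873). The other probes of LUX gave differences of -0.07 and 0.06. The LUX difference was 0.28 with normexp on median spot signals and 0.28 in the authors' deposited log2 values, where the groups did not overlap and the unadjusted p was under 0.05, but another LUX probe gave -0.21 in both. It was -0.046 without Col-0 replicate 1. BOA (AT5G59570) was at 1.60, 1.26 and 1.02 on the ckg arrays, against 1.09 and 0.99 on the Col-0 arrays. Its ckg arrays were spread over 0.58 log2 units, and ckg replicate 3 lay inside the Col-0 range. The BOA difference was 0.25 ± 0.19 (SE), with a 95% interval of -0.23 to 0.74 (limma adjusted p = 0.512), and was 0.035 in the authors' deposited log2 values. It was 0.10 without ckg replicate 1 and 0.39 without ckg replicate 3. The log2 ratio of BOA to LUX within an array, which does not depend on scaling between arrays, was 0.21 higher in ckg with overlapping groups (exact permutation p = 0.4).

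RVE4 and RVE8, the activators of evening genes, were both higher in ckg. RVE4 (AT5G02840) was at 2.97, 3.00 and 2.79 on the ckg arrays, against 2.26 and 2.49 on the Col-0 arrays, corresponding to 19330, 20860 and 15400 units of processed signal in ckg and 12080 and 12010 in Col-0. The lowest ckg array was above the highest Col-0 array by more than the gap between the Col-0 arrays. The difference was 0.54 ± 0.13 (SE), a 1.46-fold higher level, with a 95% interval of 0.21 to 0.87 (limma unadjusted p = 0.00775, adjusted p = 0.157). A second probe of RVE4 gave a difference of 0.54 ± 0.15 (SE). Without Col-0 replicate 1 the RVE4 difference was 0.43 and its unadjusted p was above 0.05. RVE8 (AT3G09600) was at -0.72, -0.61 and -0.69 on the ckg arrays, against -1.61 and -0.92 on the Col-0 arrays. The ckg arrays lay within 0.11 log2 units of each other, while the Col-0 arrays were 0.69 apart. The difference was 0.59 ± 0.22 (SE), a 1.503-fold higher level, with a 95% interval of 0.03 to 1.14 (limma unadjusted p = 0.0412, adjusted p = 0.259). The RVE8 difference rested on which Col-0 array was used: leaving out replicate 1 gave 0.24, and leaving out replicate 2 gave 0.93. Its unadjusted p was above 0.05 without Col-0 replicate 1 and without any 1 of the ckg arrays. The ratio of RVE8 to RVE4 within an array differed by 0.04 between genotypes, with overlapping groups (exact permutation p = 0.9).

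The coactivators LNK1 and LNK2 had wider spreads among replicates than differences between genotypes. LNK1 (AT5G64170) was at -0.41, -0.30 and -1.02 on the ckg arrays, against -1.13 and -0.47 on the Col-0 arrays. The arrays spread over 0.72 log2 units in ckg and 0.66 in Col-0, and the groups overlapped. The LNK1 difference was 0.22 ± 0.30 (SE), with a 95% interval of -0.55 to 0.99 (limma adjusted p = 0.725), and turned to -0.11 without Col-0 replicate 1. A second LNK1 probe was well above background on only 1 ckg and 1 Col-0 array and gave no usable level. LNK2 (AT3G54500) was at 0.29, 0.29 and 1.18 on the ckg arrays, against 0.42 and 1.07 on the Col-0 arrays. On this probe ckg replicate 3 was the high array. The LNK2 difference was -0.16 ± 0.35 (SE), with a 95% interval of -1.05 to 0.74 (limma adjusted p = 0.839), and turned to 0.17 without Col-0 replicate 2. A second LNK2 probe was at -3.30, -3.23 and -3.48 on the ckg arrays, against -3.13 and -2.35 on the Col-0 arrays. On it ckg replicate 3 was the lowest array, opposite to the probe used, and the difference was -0.60 ± 0.25 (SE). The intervals of LNK1 and LNK2 both include a difference of the size of that of RVE4, in either direction. The within-array ratio of LNK1 to LNK2 was nearly equal on the Col-0 arrays (SD 0.007) but spread widely over the ckg arrays (SD 0.90), where replicate 3 was far below the others; it rests on the probe used for LNK2, on which replicate 3 stood opposite to the second probe.

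**Figure D2:**
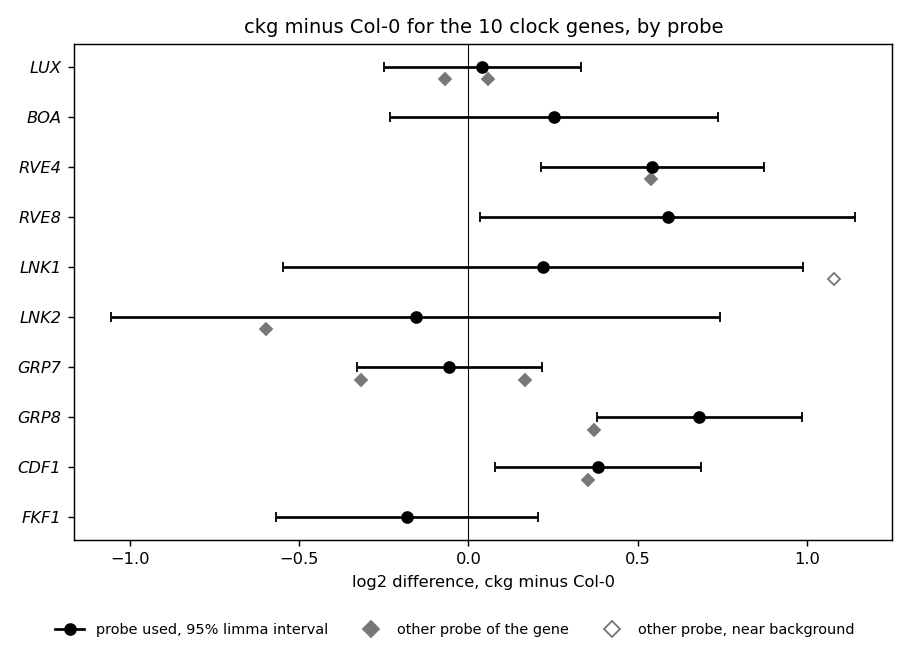
Log2 difference, ckg minus Col-0, for the probe used for each clock gene (black circle, with its 95% limma interval) and for every other probe of that gene (grey diamonds, open where the probe was not well above background on every array). The intervals of RVE4, RVE8, GRP8 and CDF1 lie above 0. The other probes of GRP7 fall on both sides of 0.

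Of the output genes GRP7 and GRP8, GRP8 was higher on every ckg array and GRP7 overlapped between genotypes. GRP8 (AT4G39260) had the largest difference of the 10 genes, at 4.41, 4.61 and 4.61 on the ckg arrays, against 3.92 and 3.79 on the Col-0 arrays. Its processed signals were 52410, 63590 and 54120 units in ckg and 38180 and 29630 in Col-0, so the groups were clearly apart and tight. The difference was 0.68 ± 0.12 (SE), a 1.61-fold higher level, with a 95% interval of 0.38 to 0.99 (limma unadjusted p = 0.00197, adjusted p = 0.118). By p it ranked 301 of 18122 genes, and 92.4% of tested genes had a smaller difference. A dimmer GRP8 probe gave 0.37 ± 0.19 (SE), smaller but in the same direction. GRP7 (AT2G21660) was at 6.68, 6.64 and 6.82 on the ckg arrays, against 6.76 and 6.78 on the Col-0 arrays. The groups overlapped, and the difference was -0.06 ± 0.11 (SE), with a 95% interval of -0.33 to 0.22 (limma adjusted p = 0.809). It was -0.11 without ckg replicate 3 and -0.019 without ckg replicate 2. Its other probes gave -0.32 ± 0.17 and 0.17 ± 0.12 (SE), and with normexp background correction the difference of the probe used was -0.23, with groups that did not overlap. The within-array log2 ratio of GRP8 to GRP7 was 0.74 higher in ckg: relative to the Col-0 mean it was 0.64, 0.87 and 0.70 on the ckg arrays, against 0.08 and -0.08 on the Col-0 arrays (exact permutation p = 0.1, the smallest that 10 splits allow). This ratio was computed after the values of both genes had been seen. It rests on the brightest probe of each gene. The other probes gave other differences, 0.37 for GRP8 and -0.32 and 0.17 for GRP7, and their ratios were not computed. The proteins are close relatives, and whether a probe of one gene also binds the other's transcript was not tested.

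CDF1 and FKF1 act against each other in the control of flowering by day length. The CDF1 transcript was higher on every ckg array, while that of FKF1 overlapped between genotypes. CDF1 (AT5G62430) was at 1.76, 1.72 and 1.86 on the ckg arrays, against 1.29 and 1.51 on the Col-0 arrays. All ckg arrays were above both Col-0 arrays, with a spread of 0.14 log2 units in ckg and 0.22 in Col-0. The CDF1 difference was 0.38 ± 0.12 (SE), a 1.30-fold higher level, with a 95% interval of 0.08 to 0.69 (limma unadjusted p = 0.0225, adjusted p = 0.208). A second probe gave 0.35 ± 0.13 (SE). In the authors' deposited log2 values the probe used gave 0.22, as it did with normexp background correction, and in both the groups overlapped. Without Col-0 replicate 1 it gave 0.27, with an unadjusted p above 0.05. FKF1 (AT1G68050) was at 0.24, 0.67 and 0.44 on the ckg arrays, against 0.62 and 0.64 on the Col-0 arrays. The ckg arrays scattered around and below the tight Col-0 pair, and the difference was -0.18 ± 0.15 (SE), with a 95% interval of -0.57 to 0.21 (limma adjusted p = 0.560). It was -0.076 without ckg replicate 1 and -0.29 without ckg replicate 2. With normexp, with median scaling and in the authors' deposited log2 values, the FKF1 groups did not overlap, though its unadjusted p stayed above 0.05.

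Several probes per gene allowed a check within the arrays. Of the 9 probes not used to represent a gene, 7 had the same sign as the probe used, the dim LNK1 probe among them. The exceptions were 1 probe of LUX and 1 of GRP7, genes whose used probe lay within 0.06 of 0. For RVE4, GRP8 and CDF1, which have more than 1 probe, the second probe was also higher in ckg; RVE8 has a single probe.

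For LNK1, LNK2 and RVE8 the spread between wild-type replicates was itself large. The Col-0 arrays differed by 0.66 for LNK1, 0.65 for LNK2 and 0.69 for RVE8 (log2), against a median gap of 0.12 and a 95th percentile of 0.61 over 18062 genes with a value on both arrays. In each case Col-0 replicate 2 was the higher array. Gaps above that percentile with replicate 2 higher were also found for CCA1 (0.77), PRR9 (0.71), LNK3 (0.92) and RVE3 (0.68), and the gap of LHY was 0.54. It was not general among related genes: CO had a gap of 1.00 with replicate 2 the lower array, and PRR7 (0.12) and LNK4 (0.06) had small gaps. The remaining 7 clock genes had Col-0 gaps of 0.02 to 0.23. On the ckg arrays, replicate 3 had the highest CCA1 (0.89, with -0.16 and 0.02 on the others) and the highest LHY (0.04, with -0.62 and -0.75), along with the lowest LNK1 and BOA, while the LNK2 probes disagreed on it. The related genes of this comparison were chosen after their values were seen. Without ckg replicate 3, groups did not overlap for 8 of the 10 clock genes instead of 4, adding BOA, GRP7, LNK1 and LNK2. Among all 18122 tested genes, such genes numbered 10418 instead of 7530, so groups were apart more often there too.

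**Figure D3:**
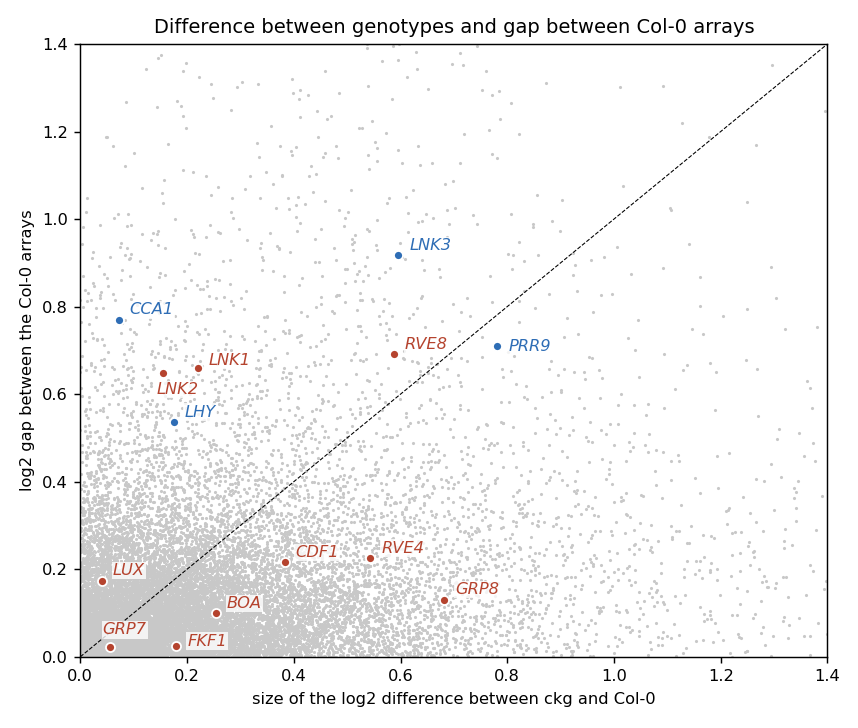
Size of the log2 difference between ckg and Col-0 (x axis) against the log2 gap between the Col-0 arrays (y axis) for 17762 tested genes (grey) and the 10 clock genes (red), with 4 other clock genes in blue. The dashed line marks equal values, and 300 genes beyond 1.4 on either axis are not drawn. LNK1, LNK2, RVE8 and LUX lie above the line and GRP8, RVE4, CDF1, BOA, FKF1 and GRP7 below it.

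Other genes of the clock gave the setting for these values. Of 12 core oscillator genes tested, 1 was higher and 2 were lower in ckg at a limma unadjusted p under 0.05. These were 25% of the list, against 18.1% of all tested genes (8.3% higher, 9.81% lower). The median difference of the list was 0.02. PRR9, among the lower genes, was tested because of its Col-0 level alone, and where a gene had to be above background on all arrays 2 of the list were called. PRR7, a day-phased repressor, was at -1.22, -1.06 and -1.52 on the ckg arrays, against -0.23 and -0.11 on the Col-0 arrays, a difference of -1.09 ± 0.17 (SE; limma adjusted p = 0.103). The mean over both PRR7 probes gave -0.45 ± 0.52 (SE), smaller than its error. With both probes weighing equally, that mean implies a difference above 0 on the other probe. The lower PRR7 level therefore rests on the probe used. PRR7 lies near RVE4 on chromosome 5, with 4 annotated genes between them (2 of them protein coding). On the probes used, the differences of PRR7 and RVE4 had opposite signs. PRR9, another repressor of this family, had a difference of -0.78 ± 0.22 (SE), was well above background on 2 of 3 ckg arrays, and gave -0.26 with normexp background correction. Leaving out Col-0 replicate 2 gave -0.43, and leaving out Col-0 replicate 1 gave -1.14. ELF4, which joins LUX and BOA in the evening complex, had a difference of 0.42 ± 0.11 (SE), which was 0.24 with normexp background correction. GI, which works with FKF1, had a difference of -0.56 ± 0.28 (SE), and of -0.29 without ckg replicate 3. None of these passed an adjusted p of 0.05 in limma.

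Among 13 relatives of the 10 genes, 3 were higher and 2 lower in ckg at a limma unadjusted p under 0.05, with a median difference of 0.15. These were 38.5% of the list, against 18.1% of all tested genes. All 6 further RVE genes had a higher mean in ckg. RVE2 was at 3.50, 3.80 and 4.38 on the ckg arrays, against 2.53 and 2.81 on the Col-0 arrays, a difference of 1.22 ± 0.28 (SE; limma adjusted p = 0.152). RVE1, which links the clock to auxin, had a difference of 0.88 ± 0.27 (SE) and RVE5 of 0.40 ± 0.11 (SE), and those of RVE3, RVE6 and RVE7 were 0.53, 0.31 and 0.33. With RVE4 and RVE8, all 8 measured RVE genes had a positive difference, as did 8819 of all 18122 tested genes. The sign stayed under each alternative processing and with each array left out, but these runs reuse the same 5 arrays. Only RVE1, RVE2, RVE4, RVE5 and RVE8 were at a limma unadjusted p under 0.05, and none passed after adjustment. Relatives of CDF1 had differences of both signs: that of CDF3 was -0.87 ± 0.22 (SE; limma adjusted p = 0.165) and of CDF5 -0.59 ± 0.17 (SE; limma adjusted p = 0.188; -0.17 with normexp background correction), while CDF2 (0.15 ± 0.23) and CDF4 (-0.11 ± 0.30) had differences smaller than their errors. CDF4 was well above background on 1 of 3 ckg arrays and was tested because of its Col-0 level alone. LNK3 and LNK4, relatives of the coactivators, had differences of -0.60 ± 0.29 and -0.26 ± 0.28 (SE).

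**Figure D4:**
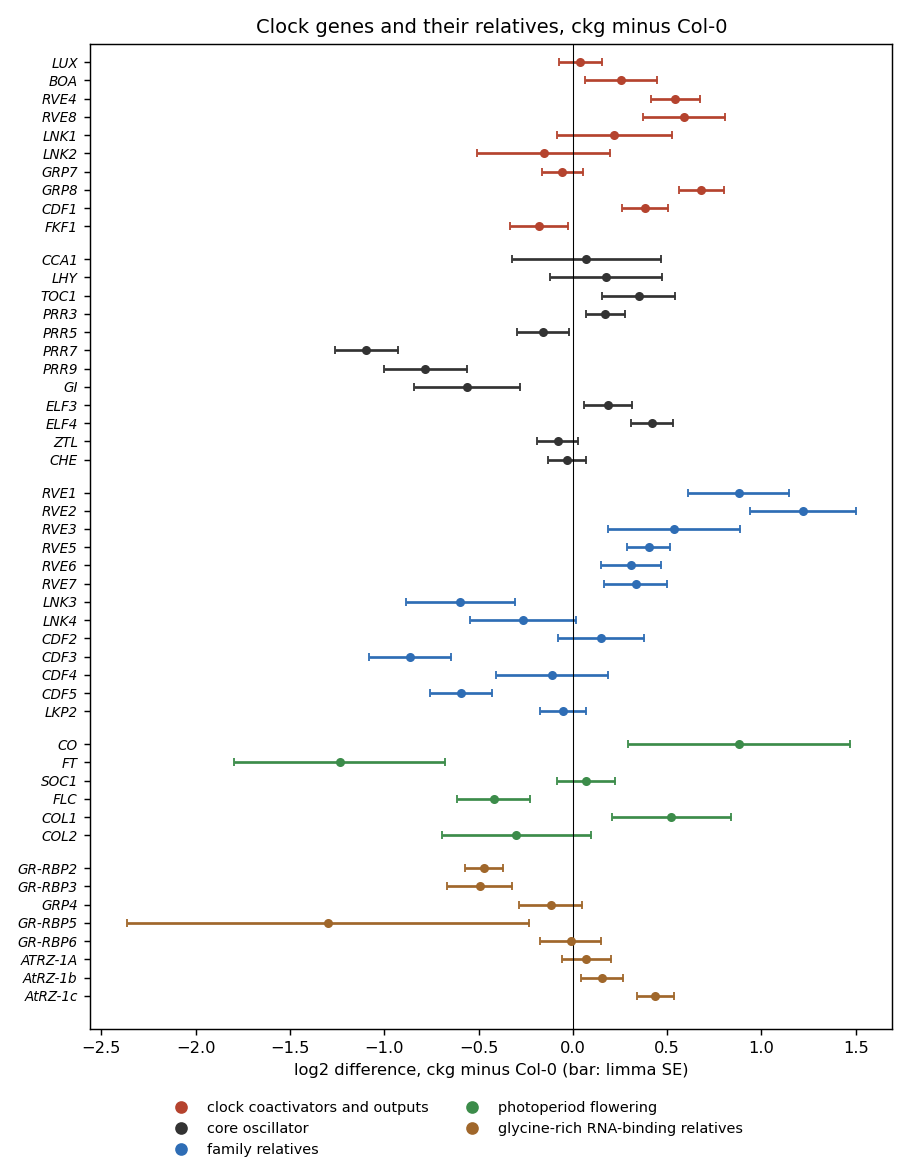
Log2 difference, ckg minus Col-0, with limma SE, for the 10 clock genes (red), core oscillator genes (black), family relatives (blue), flowering genes (green) and relatives of GRP7 and GRP8 (brown). The 8 RVE genes all lie right of 0, while CDF1 and CDF3 lie on opposite sides.

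Among flowering genes, which include targets of the CDF1 and FKF1 pathway, none of the 6 measured was at a limma unadjusted p under 0.05. Of all tested genes, 18.1% were at that p. FT, the mobile flowering signal, was at -3.99, -4.42 and -5.85 on the ckg arrays, against -3.40 and -3.63 on the Col-0 arrays, a difference of -1.24 ± 0.56 (SE; limma adjusted p = 0.318). FT was well above background on 2 of 3 ckg arrays and was tested because of its Col-0 level alone. Without ckg replicate 3 its difference was -0.69. The difference was 0.88 ± 0.59 (SE) for CO, the target of CDF1, 0.52 ± 0.32 (SE) for its relative COL1 and -0.42 ± 0.19 (SE) for the flowering repressor FLC, which acts in parallel to that pathway. Leaving out Col-0 replicate 2 gave 0.39 for CO, and leaving out Col-0 replicate 1 gave 1.38. COL1 was 0.25 without ckg replicate 3 and 0.29 without Col-0 replicate 1, and FLC was -0.26 without ckg replicate 2. TSF, the relative of FT and the remaining gene of that list, was well above background on 2 ckg arrays and 0 Col-0 arrays and was not tested.

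Among 8 relatives of GRP7 and GRP8, 1 was higher and 2 were lower at a limma unadjusted p under 0.05. These were 37.5% of the list, against 18.1% of all tested genes. GR-RBP2 was at -0.38, -0.33 and -0.27 on the ckg arrays, against 0.18 and 0.11 on the Col-0 arrays, a difference of -0.47 ± 0.10 (SE; limma adjusted p = 0.143), and GR-RBP3 had one of -0.49 ± 0.17 (SE). AtRZ-1c had a difference of 0.44 ± 0.10 (SE; limma adjusted p = 0.149) and AtRZ-1b of 0.16 ± 0.11 (SE). The difference of GRP8 had the sign of AtRZ-1c and the opposite sign to GR-RBP2 and GR-RBP3.

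The tested genes whose pattern over the 5 arrays was most like GRP8 were AT1G51380, AT3G13510 and AT5G23480. Their root-mean-square distances from it were 0.02, 0.03 and 0.03 log2 units after each gene was centred on its own mean. For RVE8, which had the next largest difference, they were MLS (malate synthase of the glyoxylate cycle), AT5G01350 and AT5G24165, at distances of 0.05, 0.07 and 0.08.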

How the data were processed

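Agilent Feature Extraction 10.7.1.1 read the scans, per the file headers; the intensity the authors deposited and used here is its background-subtracted, detrended processed signal, with no scaling between arrays. Flags of 0 or 1 per spot, of no other unit, were deposited with it per the file headers. The authors' deposited series table holds log2 levels with no stated normalisation; their ranks equal those of the raw median intensity on each array (Spearman correlation 1), and each array's median is 8.41. Direction and centring are not in question, since these are levels.

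Here the log2 processed signal was reduced by the array's 75th percentile of non-control spots. Outlier spots (35 to 197 per array) were left out and no spot was saturated. Probe accessions were matched to loci through the TAIR10.1 gene table (34358 of 43603 probes). The brightest probe represented a gene, and genes entered the test when all arrays of ckg or all arrays of Col-0 measured them well above background. Coordinates are not given, since the build of the array design is another one. Limma 3.58.1 in R 4.3.3 fitted ckg minus Col-0 over all 5 arrays, with Benjamini-Hochberg adjustment over all 18122 genes, two-sided, and was tested on simulated data. Precision is limited by the number of arrays (3 residual degrees of freedom). The permutation tests are exact and two-sided. The design text calls the replicates biological; nothing says they were separate plantings, so p-values measure the spread between these samples.

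The genes, lists and rules were chosen with earlier results of these data known. Named beside the 10 genes are the 4 members of each related list with the smallest p, and the 3 genes nearest in pattern to the 2 clock genes with the largest difference; the within-array ratios, RVE1, CCA1, LHY and other genes beyond these were added after their values were seen. Normexp (offset 50) was run on median spot signals, since the scanner output holds no mean signals. Promoter motifs and protein comparisons were planned and not run.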

Additional observations from a re-analysis of the deposited data

How the results depend on the processing

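No clock gene and no related clock gene passed limma's adjusted p of 0.05 under any alternative run. The count over all genes was 3 with normexp, 1 with median scaling, 3 with the authors' series table, 4 with trend and robust variance, and 0 to 8 when an array was left out, against 0. Clock genes at an unadjusted p under 0.05 numbered 3 or 4 throughout, except 1 (GRP8) without Col-0 replicate 1 (range 1 to 4 with an array left out), where 1627 of all 18122 genes were called, against 3283; with normexp and with the series table LUX was called and CDF1 was not. Clock genes with groups apart numbered 4 to 8 with an array left out, while such genes numbered 9151 to 10620 over all genes, against 7530. Where a Col-0 array is left out, the lone one is assumed to vary like the ckg arrays. GRP8 ranged from 0.53 to 0.75, with adjusted p of 0.0781 to 0.469. Signs turned for AtRZ-1b with normexp (-0.026) and the series table (-0.026), and for CCA1 with normexp (-0.045), the series table (-0.050), the mean of probes (-0.28) and the block (-0.25). LHY turned with the block (-0.067). With an array left out, LUX ranged from -0.046 to 0.13, LNK1 from -0.11 to 0.55, LNK2 from -0.48 to 0.17, CCA1 from -0.31 to 0.46 and LHY from -0.093 to 0.44. The gene taken as mutated, tested because of its Col-0 level alone, passed with normexp (limma adjusted p = 0.00351) and the series table (0.0274), against 0.103. The cause was not tested. Counts of related genes at a limma unadjusted p under 0.05 moved too. With a ckg array left out the core oscillator had 3 to 5, against 3, and family relatives 4 to 8, against 5. Over all 18122 genes, 2566 to 4212 were called in those runs, against 3283. Flowering genes at that p numbered 2 with normexp, 1 with the series table, without the filter or with the mean of probes, against 0. Among all 18122 genes the count was 3614 under normexp, 3172 for the series table and 2897 for averaged probes. Unfiltered, it was 2583 of 25433 genes. With a ckg array left out, flowering genes at that p numbered 0 to 3. With replicate numbers as a replicate block, 0 genes passed. At a limma unadjusted p under 0.05 were 3 clock genes (RVE4, RVE8, GRP8), 8 family relatives, 3 flowering genes and 3029 of all 18122 genes. Only ckg has a replicate 3, so the block takes that array out of the difference. It therefore gave the same differences as leaving out ckg replicate 3, with RVE4 at 0.61, CCA1 at -0.25 and LHY at -0.067 in both runs. Deviations of same-numbered arrays from their group means correlated at -0.090 for replicate 1 and -0.10 for replicate 2. With 2 Col-0 arrays the deviations of 1 mirror those of the other, so these values cannot decide whether the numbers pair the arrays. Promoter and protein comparisons could not be run.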

Other observations

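GR-RBP5, a glycine-rich RNA-binding relative of GRP7 and GRP8, had 1 ckg array far from the rest. It was at -1.59, 1.73 and 1.62 on the ckg arrays, against 1.91 and 1.87 on the Col-0 arrays, so its difference of -1.30 ± 1.07 (SE) rests on ckg replicate 1.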
